A study of Mus musculus with 4 samples.

Results

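Ion channels and calcium transporters are the membrane proteins that let potassium, calcium, chloride and other ions cross the plasma membrane and the membranes of internal stores. The genes described here are the 131 symbols, of 16613 in the read count files, that name potassium channels (Kcn), voltage-gated calcium channels (Cacn), channels of the TRPC, TRPM and TRPV families, sodium-calcium exchangers (Slc8a), CLC chloride channels and exchangers (Clcn), Orai and Stim proteins, the calcium pumps Atp2a and Atp2b, and ryanodine receptors. They were taken by their symbols alone. RNA-seq covered 4 libraries of GFP+ bone marrow cells, taken on the C57BL/6 strain from N-myc-driven leukaemia of precursor B cells, B-ALL in the labels. In 2 libraries the leukaemia came from Anp32b-/- donor cells, which lack the nuclear acidic protein ANP32B, and in 2 from Anp32b+/+ donor cells. Donor cells of both genotypes were B220+ bone marrow cells, were transduced with N-myc and were given to recipient mice, so the driver, the marker sort and the host are shared. The labels give no age, no vector and no statement that the libraries came from separate animals, and the p-values therefore measure only the spread between these libraries, which may be technical.

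In lymphocytes, an antigen receptor signal makes phospholipase C gamma release calcium from the endoplasmic reticulum. STIM proteins sense the emptied store and open ORAI channels in the plasma membrane, and SERCA pumps (Atp2a) refill the store. Plasma membrane pumps (Atp2b) and sodium-calcium exchangers (Slc8a) carry calcium out of the cell. Potassium channels keep the inside of the cell negative, which sustains calcium entry. Voltage-gated calcium channels and ryanodine receptors are best known from nerve and muscle.

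The libraries held 19581575 to 19758671 estimated reads. Anp32b was at 74.4 and 70.6 CPM (reads scaled to a common library size with TMM factors) in Anp32b-/- libraries, against 774 and 853 CPM in Anp32b+/+ libraries. The direction is that of the genotype labels. The Anp32b-/- libraries still held 1449 and 1367 Anp32b reads, whose source was not tested. All 14 B cell marker genes were measured, with a summed level of 5482 and 5510 CPM in Anp32b-/- libraries and 5983 and 5917 CPM in Anp32b+/+ libraries. Replicate libraries differed by more than sampling noise, with a chi-square per degree of freedom of 2.09 between the Anp32b-/- libraries and 5.29 between the Anp32b+/+ libraries. Libraries of different genotype differed by 18.4 to 19.7 on this measure. In such bulk libraries, fewer cells of a type and less RNA per cell cannot be told apart.

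Of the 131 channel genes, 74 fell below the filter on low counts, and 33 of these had at most 3 estimated reads in every library. The count of 3 reads, the limit that a count of 0 allows, corresponds to 0.151 to 0.155 CPM and covers counting error only. Filtered genes included the TRPC, TRPM and TRPV genes other than Trpc1, Trpc4, Trpm2, Trpm4, Trpm7 and Trpv2. The other 57 genes were tested, and 44 of them reached 1 CPM in all 4 libraries. Trpc4 was the 1 tested gene above the filter cut-off in both Anp32b+/+ libraries and in no Anp32b-/- library, and no gene showed the reverse. Slc8a1 came near the reverse, with both Anp32b-/- libraries and 1 Anp32b+/+ library above the cut-off.

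Per kilobase of transcript, the endoplasmic reticulum calcium pumps stood highest. Atp2a3, the SERCA pump typical of blood cells, had a mean level of 112 CPM per kilobase in Anp32b-/- and 86.0 in Anp32b+/+ libraries. Atp2a2, the housekeeping SERCA pump, had a level of 83.3 and 78.0 CPM per kilobase in Anp32b-/- and Anp32b+/+ libraries. The next highest levels were those of Kcnab2, which encodes a beta subunit of voltage-gated potassium channels, at 73.3 in Anp32b-/- and 57.3 CPM per kilobase in Anp32b+/+ libraries. Kcnn4, the calcium-activated potassium channel of lymphocytes, followed at 37.8 in Anp32b-/- and 24.4 CPM per kilobase in Anp32b+/+ libraries. Orai2, Clcn4, Orai1, Trpm7, Trpv2, Stim2 and Clcn3 then lay close together, each at 10.6 CPM per kilobase or more in the mean of either genotype and below Kcnn4. Trpm7 encodes a cation channel fused to a kinase.

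**Figure D1:**
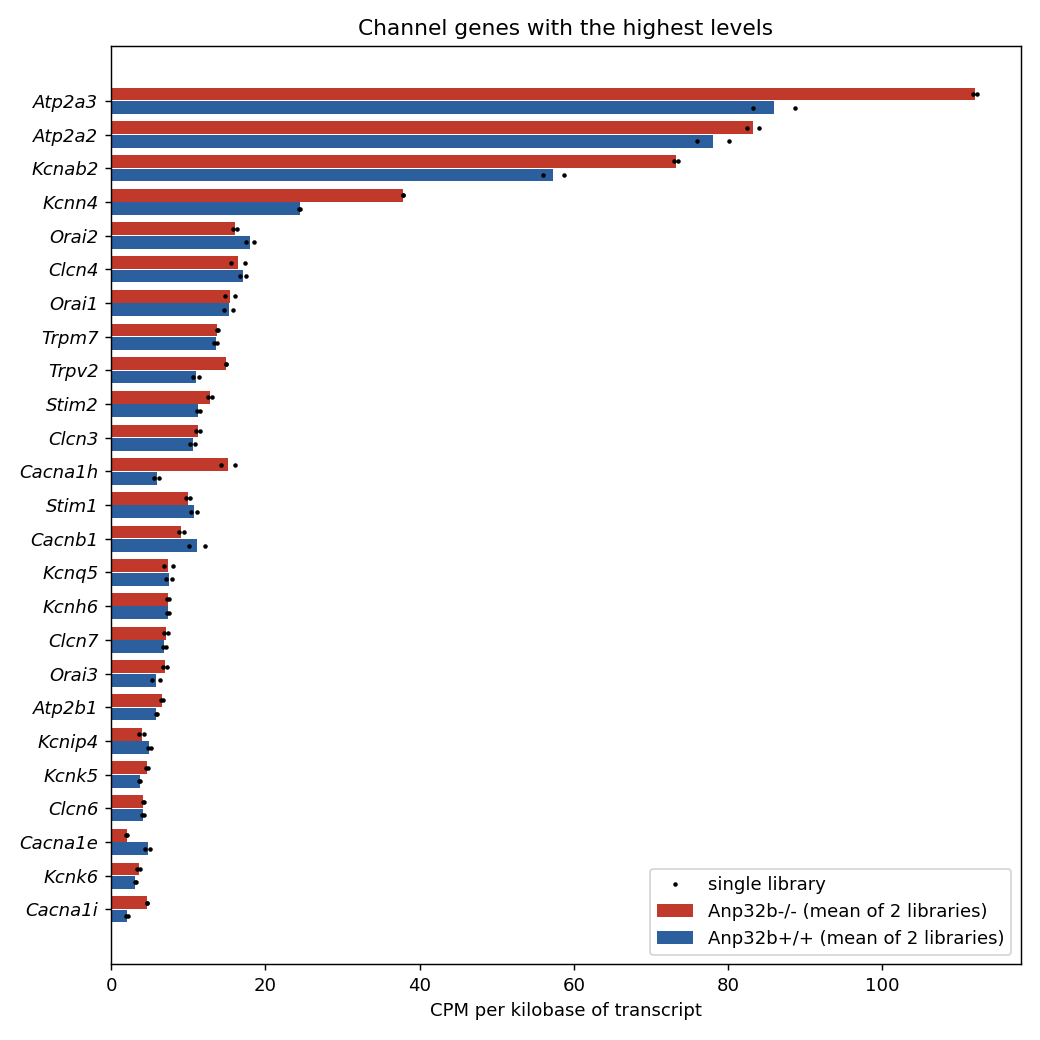
Mean level of the 25 channel genes with the highest levels, as CPM per kilobase of transcript (horizontal axis), with Anp32b-/- bars above Anp32b+/+ bars, n = 2 libraries each, and dots for single libraries. Atp2a3, Atp2a2, Kcnab2 and Kcnn4 stand apart from the rest, and the mean of Cacna1h was at 15.2 in Anp32b-/- and 5.89 CPM per kilobase in Anp32b+/+.

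Of the 57 tested genes, 13 rose and 8 fell in Anp32b-/- libraries, which is 22.8% and 14.0% of them. Over all 12123 tested genes, 10.9% were called higher and 12.6% lower, 23.6% in all, by edgeR's quasi-likelihood test at an adjusted p under 0.05. At a fold change of at least 2, 4 channel genes rose and 5 fell, 15.8% of those tested, against 5.2% of all tested genes, where 1.3% were higher and 3.9% lower. The libraries of the genotypes did not overlap for 38 of the 57 genes (66.7%), against 60.5% of all tested genes. The median log2 fold change was 0.02 over the channel genes and 0.0021 over all tested genes. Trpc4 was tested through its Anp32b+/+ level alone, so that it had to differ. An alternative added after the data were seen left out genes above the cut-off in both libraries of 1 genotype and in no library of the other. Then 13 of 56 channel genes were called higher and 7 lower (35.7%, against 22.8% of 11879 genes), and 4 rose and 4 fell at least 2-fold (14.3%, against 4.04%). Slc8a1, above the cut-off in 1 Anp32b+/+ library, stays in these counts, though it was tested through its Anp32b-/- level. By mean level, the share called with a change of at least 2-fold was 3 of 20 channel genes (15.0%) from 20 CPM upwards, against 0.98% of all tested genes of that level. It was 3 of 13 (23.1%) from 5 to 20 CPM, against 5.55%, and 3 of 15 from 1 to 5 CPM, against 15.9%. Below 1 CPM it was 0 of 9, against 16.0%. With upper-quartile normalization 11 channel genes were called higher and 11 lower, and without Anp32b-/- replicate 1 the counts were 9 and 5. DESeq2 likewise called 9 higher and 5 lower.

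The calls that were made under each of the 10 alternative settings numbered 14, of which 9 were rises (Kcnk1, Slc8a1, Cacna1h, Cacna1i, Kcnn4, Clcn5, Trpv2, Atp2a3 and Kcnab2) and 5 were falls (Ryr2, Cacna2d1, Cacna1e, Kcna5 and, tested through its Anp32b+/+ level alone, Trpc4). Slc8a1 was tested through its Anp32b-/- level. Neutrophil markers fell in the same libraries: 16 of 17 were called lower (94.1%, against 12.6% of all tested genes). Their summed level was 131 CPM in each Anp32b-/- library, against 655 and 665 CPM in Anp32b+/+ libraries. Monocyte and macrophage markers fell for 5 of 9 tested genes (55.6%, against 12.6%), with a summed level of 38.8 and 40.1 CPM in Anp32b-/- and 92.1 and 97.0 CPM in Anp32b+/+ libraries. The part of these cells in the falls of channel genes was not tested. Of 5 tested T cell markers, 2 rose and 1 fell, where 10.9% of all tested genes were higher and 12.6% lower. The summed level of the 10 measured was 91.9 and 87.7 CPM in Anp32b-/- and 49.7 and 55.4 CPM in Anp32b+/+ libraries. Lat, a signalling adaptor gene, was at 75.9 and 70.4 CPM in Anp32b-/- and 35.0 and 38.4 CPM in Anp32b+/+ libraries (log2 fold change 1.00, adjusted p = 1.11e-07). The kinase gene Zap70 rose by 0.53 (adjusted p = 0.00437) and the co-receptor gene Cd4 fell by 1.61 (adjusted p = 4.65e-04) on the log2 scale. The defining markers Cd3e, Cd3d and Cd3g had at most 0.155 CPM in Anp32b-/- and at most 0.353 CPM in Anp32b+/+ libraries. The part of the T cell markers in the rises of channel genes was not tested.

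**Figure D2:**
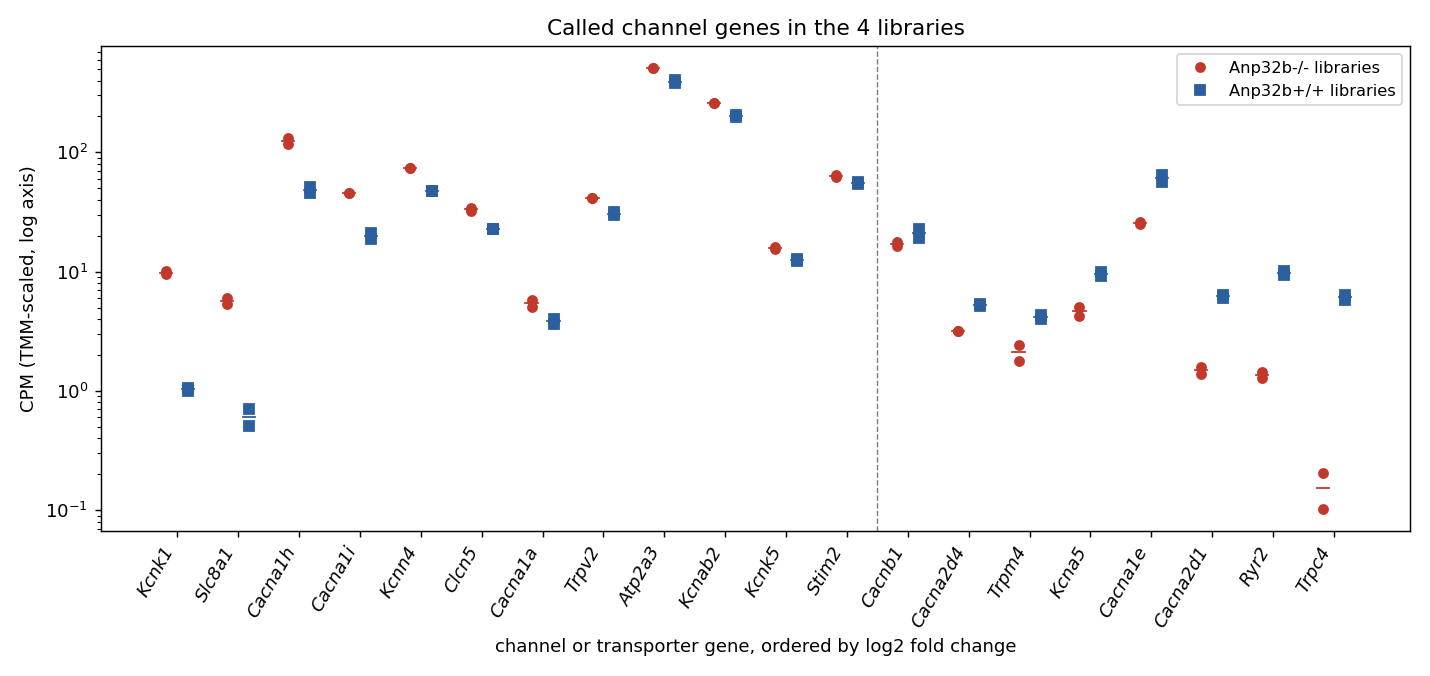
Level of 20 called channel genes in each library, as CPM on a log axis, with Anp32b-/- libraries as circles left of Anp32b+/+ libraries as squares and short lines for the means (n = 2 each). The 12 genes left of the dashed line were higher and the 8 right of it lower in Anp32b-/-. The libraries of the genotypes do not overlap for any of these genes, which were chosen by their calls, nor for 60.5% of all tested genes.

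Of 5 tested pore genes of voltage-gated calcium channels, 3 rose and 1 fell, against 10.9% and 12.6% of all tested genes. The rises were those of Cacna1h and Cacna1i, which encode T-type channels that open at small depolarisations, and of Cacna1a, and the fall was that of Cacna1e. Cacna1h, a T-type pore gene, was at 132 and 117 CPM in Anp32b-/- libraries, against 51.5 and 45.3 CPM in Anp32b+/+ libraries. Both Anp32b-/- libraries were thus more than 2-fold above either Anp32b+/+ library, and the log2 fold change was 1.37 (SE 0.07, edgeR adjusted p = 9.47e-09). Cacna1h lies on chromosome 17 at 25374285 to 25436334 (GRCm38) and shares exon bases with Tpsg1 on the opposite strand. Tpsg1 had 7.51 and 0 reads in Anp32b-/- and 15.8 and 12.5 reads in Anp32b+/+ libraries, where Cacna1h itself had 2575 and 2274 reads in Anp32b-/- and 1026 and 898 reads in Anp32b+/+ libraries. Cacna1i, the other T-type pore gene tested, was at 45.9 and 45.3 CPM in Anp32b-/- libraries, against 21.1 and 18.9 CPM in Anp32b+/+ libraries. The groups did not overlap, and Cacna1i rose by 1.19 (SE 0.08, adjusted p = 5.04e-08) on the log2 scale. Cacna1i lies on chromosome 15 at 80287238 to 80398292. The third T-type gene, Cacna1g, had at most 2 reads in any library.

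Cacna1e, the R-type pore gene, was at 25.9 and 25.04 CPM in Anp32b-/- libraries, against 64.5 and 56.4 CPM in Anp32b+/+ libraries. It fell by 1.25 on the log2 scale (SE 0.08, adjusted p = 3.86e-08), and both Anp32b-/- libraries lay below both Anp32b+/+ libraries. Cacna1e lies on chromosome 1 at 154390806 to 154884785. Cacna1a, the P/Q-type pore gene, was at 5.03 and 5.78 CPM in Anp32b-/- and 4.02 and 3.63 CPM in Anp32b+/+ libraries (log2 fold change 0.50, adjusted p = 0.0466). That call is weak: it was lost with DESeq2, upper-quartile normalization or no filter, and in each of the 4 fits that left out a library. The N-type pore gene Cacna1b was tested and not called. The L-type genes Cacna1c, Cacna1d, Cacna1f and Cacna1s, among them those that carry calcium current in heart and skeletal muscle, fell below the filter.

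Of the accessory subunits of these channels, 3 of 5 tested genes fell, against 12.6% of all tested genes. Cacna2d1, whose product brings calcium channel pores to the cell surface, was at 1.59 and 1.39 CPM in Anp32b-/- libraries, against 6.02 and 6.35 CPM in Anp32b+/+ libraries. The groups were about 4-fold apart (log2 fold change -2.05, SE 0.20, adjusted p = 3.18e-06). Cacna2d1 lies on chromosome 5 at 15934264 to 16374511. Cacna2d4, a related gene, was at 3.18 and 3.15 CPM in Anp32b-/- and 5.32 and 5.14 CPM in Anp32b+/+ libraries (-0.72, adjusted p = 0.00694). That call was lost with DESeq2 (adjusted p = 0.177) and without Anp32b-/- replicate 1 or 2. Cacnb1, the beta subunit gene of highest level, was at 16.4 and 17.8 CPM in Anp32b-/- and 22.8 and 19.1 CPM in Anp32b+/+ libraries. Its log2 fold change was -0.29 and its adjusted p, 0.049998, just under the threshold. Cacnb1 was not called with DESeq2, RLE normalization or no filter, without either Anp32b-/- replicate or without Anp32b+/+ replicate 1.

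**Figure D3:**
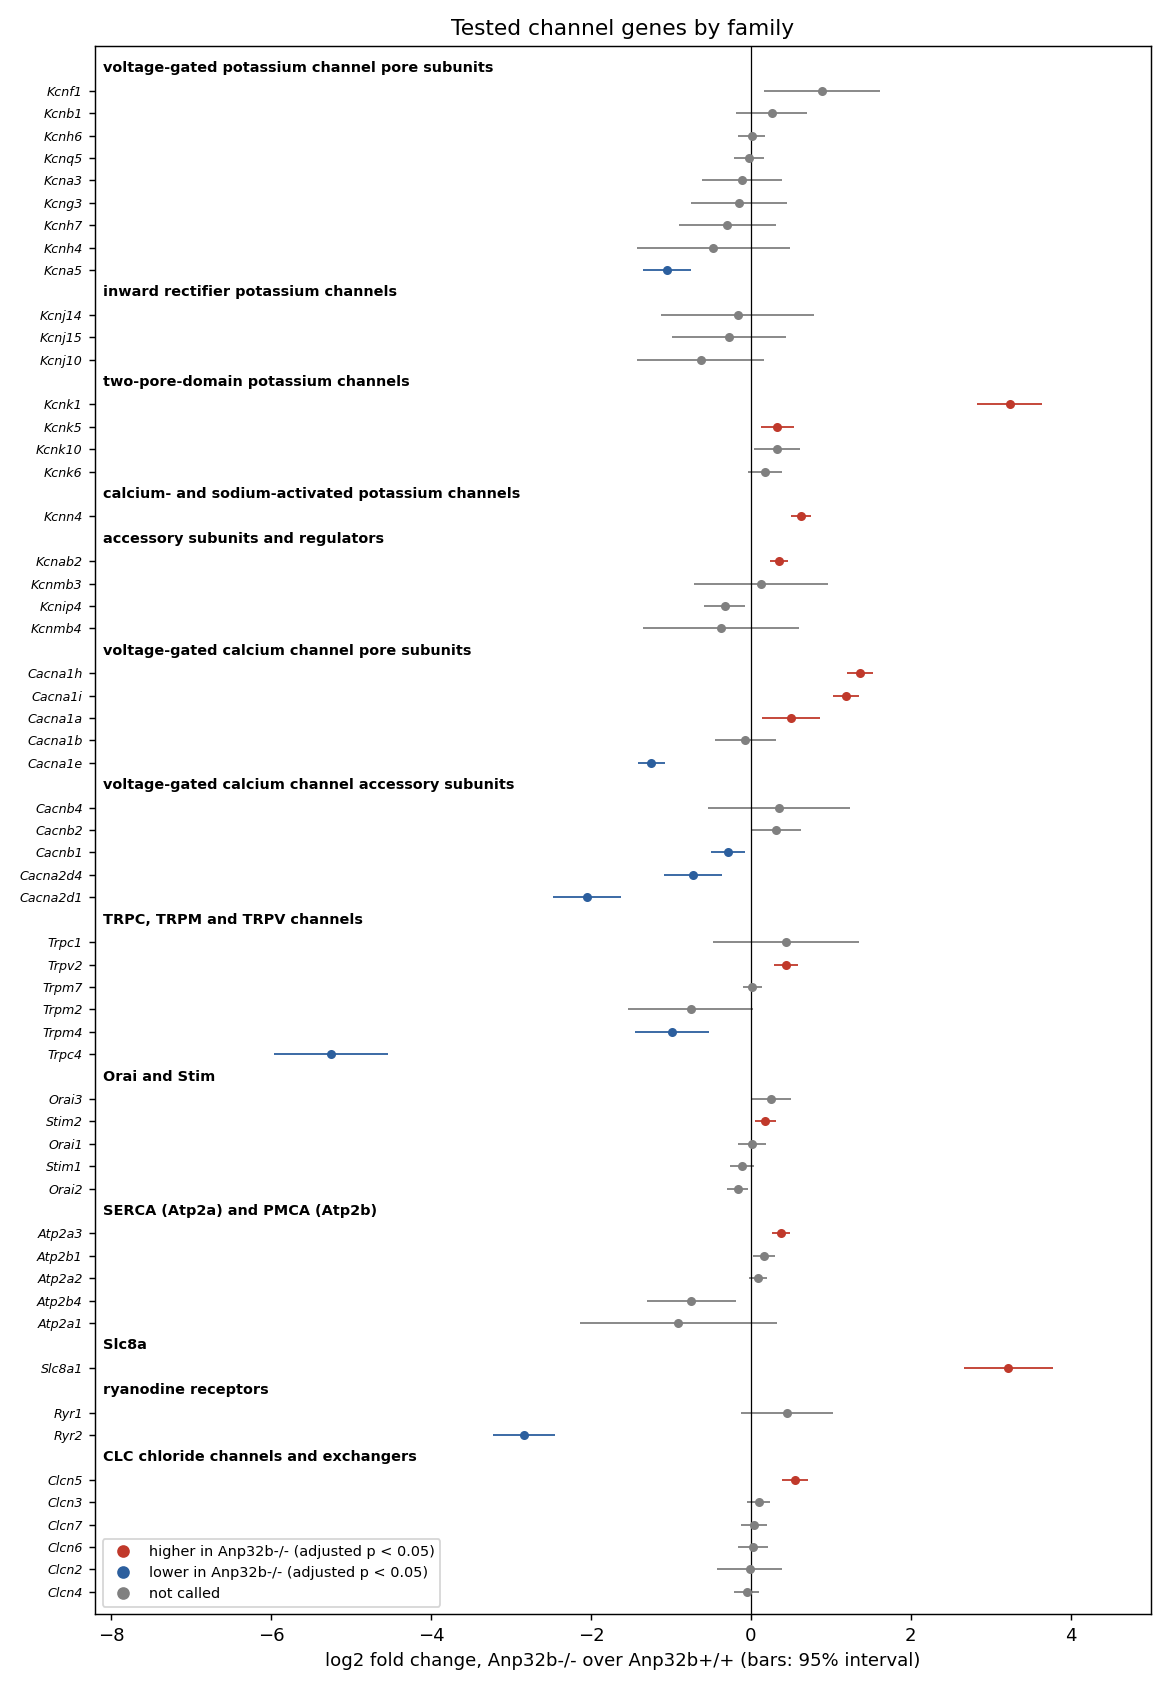
Log2 fold change of Anp32b-/- over Anp32b+/+ (horizontal axis) with its 95% interval for 56 tested channel genes, grouped by family, n = 2 libraries per genotype. Red points are called higher, blue points called lower and grey points not called, and the points of Orai, Stim and most Clcn genes lie near 0 while Kcnk1, Slc8a1, Ryr2 and Trpc4 lie far from it.

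Ryr2 fell and Slc8a1 rose, both at low levels. Ryr2, the ryanodine receptor of heart muscle, which releases calcium from internal stores, was at 1.44 and 1.29 CPM in Anp32b-/- libraries, against 9.39 and 10.2 CPM in Anp32b+/+ libraries. This 7.14-fold fall separated all 4 libraries (log2 fold change -2.84, SE 0.18, adjusted p = 4.17e-08), and Ryr1, the skeletal muscle receptor, was not called. Ryr2 lies on chromosome 13 at 11553099 to 12106945. Slc8a1, the main sodium-calcium exchanger, was at 6.06 and 5.32 CPM in Anp32b-/- libraries, against 0.703 and 0.504 CPM in Anp32b+/+ libraries. It rose 9.33-fold (log2 fold change 3.22, SE 0.26, adjusted p = 4.57e-07), on summed counts of 221 reads in Anp32b-/- and 24 in Anp32b+/+ libraries. Its 14.0 and 10 reads in Anp32b+/+ libraries lay close to the filter's minimum count of 10. In Anp32b+/+ replicate 2, the largest library, 10 reads fell just under the cut-off, which is scaled to library size. Slc8a1 was thus tested through its Anp32b-/- level, where it is high, and its fold change is a description. Slc8a1 lies on chromosome 17 at 81373105 to 81738387. Slc8a2 and Slc8a3, which encode the exchangers known from brain and muscle, had at most 5 reads in any library.

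The pumps changed little by comparison. Atp2a3 was at 509.8 and 507 CPM in Anp32b-/- libraries, against 403 and 378 CPM in Anp32b+/+ libraries, a rise of 0.38 (SE 0.05, adjusted p = 9.60e-05) on the log2 scale with no overlap. Atp2a2 was at 356 and 349 CPM in Anp32b-/- and 339 and 322 CPM in Anp32b+/+ libraries (0.09, adjusted p = 0.223), and was called higher without Anp32b+/+ replicate 1 (0.13, adjusted p = 0.0252). The third SERCA gene, Atp2a1 of skeletal muscle, was at 0.513 and 0.258 CPM in Anp32b-/- and 1.10 and 0.353 CPM in Anp32b+/+ libraries, which overlapped. Among the plasma membrane pumps, Atp2b1, the widely expressed one, had a log2 fold change of 0.17 (95% interval 0.03 to 0.31, adjusted p = 0.0833). Atp2b4 was at 1.28 and 1.81 CPM in Anp32b-/- and 2.51 and 2.67 CPM in Anp32b+/+ libraries. The libraries of Atp2b4 did not overlap, but its log2 fold change of -0.74 missed the threshold (adjusted p = 0.0511). A call was made with a replicate block (adjusted p = 0.0335), with upper-quartile normalization (0.0431) and with a filter of 1 CPM (0.0417).

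The store-operated calcium entry genes were all expressed and differed little. Orai1, the pore subunit of the classical current, was at 26.9 and 24.8 CPM in Anp32b-/- libraries, against 26.6 and 24.6 CPM in Anp32b+/+ libraries. The libraries overlapped, and the 95% interval of the log2 fold change ran from -0.16 to 0.19. Its sign was not stable: it turned with upper-quartile normalization (-0.013), without Anp32b-/- replicate 1 (-0.038) and without Anp32b+/+ replicate 2 (-0.041). Orai2 was at 64.4 and 62.4 CPM in Anp32b-/- and 72.9 and 69.3 CPM in Anp32b+/+ libraries (-0.17, 95% interval -0.29 to -0.04, adjusted p = 0.0582). It was called lower with a replicate block (adjusted p = 0.0343), with upper-quartile normalization (0.0275) and without Anp32b+/+ replicate 2 (0.0188). Orai3 was at 13.4 and 14.4 CPM in Anp32b-/- and 10.5 and 12.8 CPM in Anp32b+/+ libraries (0.26, adjusted p = 0.124), and was called higher without Anp32b+/+ replicate 2 (0.40, adjusted p = 0.0247).

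Of the store sensors, Stim1 was at 41.7 and 39.6 CPM in Anp32b-/- and 45.2 and 42.3 CPM in Anp32b+/+ libraries (-0.11, 95% interval -0.26 to 0.04, adjusted p = 0.294). Stim2, which responds to smaller losses of stored calcium, was at 64.4 and 61.6 CPM in Anp32b-/- and 56.6 and 54.4 CPM in Anp32b+/+ libraries. Its rise of 0.18 (SE 0.06, adjusted p = 0.0444) was the 1 call among the 5 Orai and Stim genes. The call was lost with DESeq2 (adjusted p = 0.270), upper-quartile normalization (0.0901) or no filter (0.107). It was also lost without Anp32b-/- replicate 1 (0.335), without Anp32b-/- replicate 2 (0.198) and without Anp32b+/+ replicate 2 (0.100).

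Among potassium channels, 5 of 22 tested genes rose and 1 fell, where 10.9% of all tested genes were higher and 12.6% lower, so the share called was near that of all genes. Kcnk1, which encodes the two-pore-domain channel TWIK of the background potassium leak, was at 10.1 and 9.50 CPM in Anp32b-/- libraries, against 1.00 and 1.06 CPM in Anp32b+/+ libraries. It rose 9.43-fold (log2 fold change 3.24, SE 0.19, adjusted p = 1.99e-08), on summed counts of 380 reads in Anp32b-/- and 41 in Anp32b+/+ libraries. Kcnk1 lies on chromosome 8 at 125993655 to 126030685. The other tested genes of this family moved far less. Kcnk5 was at 16.2 and 15.4 CPM in Anp32b-/- and 12.8 and 12.3 CPM in Anp32b+/+ libraries (0.33, adjusted p = 0.0217). Its call was lost with DESeq2, with no filter, and without Anp32b-/- replicate 1, Anp32b-/- replicate 2 or Anp32b+/+ replicate 2. Kcnk10 (0.32, adjusted p = 0.0973) was called only without Anp32b+/+ replicate 2 (0.0405), and Kcnk6 (0.18, adjusted p = 0.233) in none of the settings run. No test compared Kcnk1 with these relatives.

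Kcnn4, which links a rise in calcium to potassium efflux, was at 73.6 and 73.5 CPM in Anp32b-/- libraries, against 47.3 and 47.8 CPM in Anp32b+/+ libraries. The replicates lay within 1 CPM of each other, and Kcnn4 rose 1.55-fold (0.63, SE 0.06, adjusted p = 2.34e-06). Kcnab2 was at 258 and 259.8 CPM in Anp32b-/- and 207 and 198 CPM in Anp32b+/+ libraries, a rise of 0.35 (SE 0.05, adjusted p = 1.63e-04). Kcna5, a pore subunit gene of voltage-gated potassium channels, was at 4.26 and 5.01 CPM in Anp32b-/- libraries, against 9.99 and 9.23 CPM in Anp32b+/+ libraries, and fell 2.07-fold (-1.05, SE 0.14, adjusted p = 7.25e-05). Kcna5 lies on chromosome 6 at 126532551 to 126535555.

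Kcna3, the voltage-gated potassium channel best known from lymphocytes, was at 6.31 and 5.58 CPM in Anp32b-/- libraries, against 8.53 and 4.34 CPM in Anp32b+/+ libraries. The Anp32b+/+ pair enclosed the Anp32b-/- pair, so no direction can be given (log2 fold change -0.11, 95% interval -0.61 to 0.38). It was 0.46 without Anp32b+/+ replicate 1 and -0.52, then called lower (adjusted p = 0.0257), without Anp32b+/+ replicate 2. Kcnq5, of the highest CPM among the voltage-gated potassium channel pore genes, was at 37.3 and 31.9 CPM in Anp32b-/- and 37.0 and 33.3 CPM in Anp32b+/+ libraries, which overlapped. Its log2 fold change of -0.02 turned to 0.09 without Anp32b-/- replicate 2 and to 0.06 without Anp32b+/+ replicate 1. Of the 3 tested inward rectifiers, none was called by edgeR or DESeq2, where edgeR called 23.6% of all tested genes. Of them, 0 had an unadjusted p under 0.05, and their levels were low, that of Kcnj15 being 1.29 ± 0.43 CPM in Anp32b-/- and 1.56 ± 0.43 CPM in Anp32b+/+ libraries (SD, n = 2 each).

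Among TRP channels, 2 of 6 tested genes fell and 1 rose, where 12.6% of all tested genes were lower and 10.9% higher. The falls include that of Trpc4, tested through its Anp32b+/+ level alone. Trpc4, a cation channel opened downstream of phospholipase C, had 2 and 4 reads in Anp32b-/- libraries, against 116 and 127 reads in Anp32b+/+ libraries. In CPM this was 0.103 and 0.207 in Anp32b-/- and 5.82 and 6.40 in Anp32b+/+ libraries, the first 2 values being close to the detection limit. Trpc4 lies on chromosome 3 at 54155584 to 54318471. The read ratio of Anp32b+/+ over Anp32b-/- was 39.6, with a 95% counting interval of 17.9 to 109. The ratio is a description, since Trpc4 entered the test through the Anp32b+/+ libraries alone. Trpm4, a channel for monovalent cations that calcium opens, was at 1.80 and 2.43 CPM in Anp32b-/- and 4.02 and 4.34 CPM in Anp32b+/+ libraries (-0.98, adjusted p = 0.0041). Its call was lost with DESeq2, with no filter and without Anp32b-/- replicate 1.

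Trpv2, a cation channel of leukocytes, was at 41.4 and 41.5 CPM in Anp32b-/- libraries, against 31.6 and 29.7 CPM in Anp32b+/+ libraries, a rise of 0.44 (SE 0.07, adjusted p = 3.68e-04). Trpm7 was at 97.3 and 96.5 CPM in Anp32b-/- and 96.9 and 94.3 CPM in Anp32b+/+ libraries, with a 95% interval of the log2 fold change from -0.10 to 0.13. Its sign turned with upper-quartile normalization (-0.011) and without Anp32b+/+ replicate 2 (-0.0028). Trpc2 had 36.6 reads in Anp32b+/+ replicate 2 and 0 reads in each of the other libraries. It shares exon bases on the same strand with Xntrpc and Xndc1, between which reads can be split, so its values are uncertain.

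Of the 6 tested CLC genes, which encode chloride channels and, in endosomes and lysosomes, chloride-proton exchangers, Clcn5 rose (16.7% called, against 23.6% of all tested genes). It was at 34.4 and 32.1 CPM in Anp32b-/- libraries, against 22.6 and 22.7 CPM in Anp32b+/+ libraries, with no overlap (0.55, SE 0.08, adjusted p = 9.59e-05). Clcn3, the CLC gene of highest CPM, was at 48.4 and 46.2 CPM in Anp32b-/- and 45.4 and 42.9 CPM in Anp32b+/+ libraries. Its log2 fold change of 0.10 was not called (95% interval -0.04 to 0.24, adjusted p = 0.326).

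**Figure D4:**
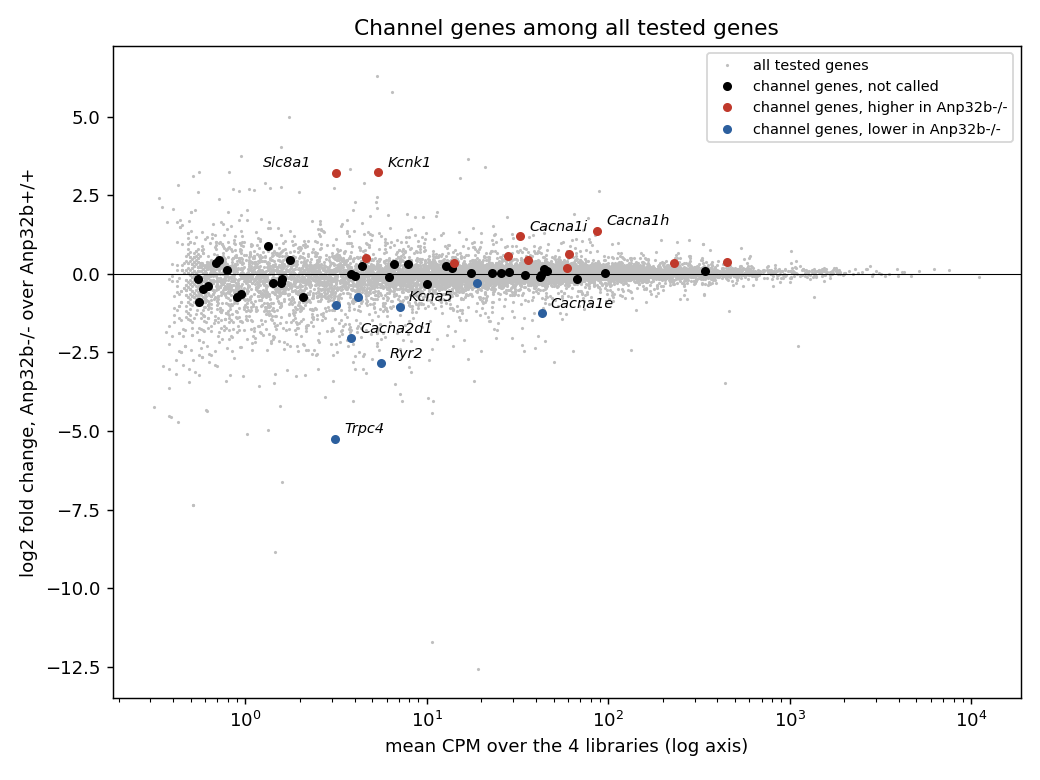
Log2 fold change of Anp32b-/- over Anp32b+/+ (vertical axis) against the mean CPM over the 4 libraries (log axis) for all 12123 tested genes in grey and 56 tested channel genes as larger points, red where called higher, blue where called lower and black where not called, with the 9 called genes of at least 2-fold change named. Cacna1h, Cacna1i and Cacna1e lie among genes of higher level, where the grey cloud is narrow, and Kcnk1, Slc8a1, Trpc4, Ryr2, Cacna2d1 and Kcna5 lie at lower levels.

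The 9 channel genes with changes of at least 2-fold had 18 nearest tested protein-coding genes, 1 on either side. Tpsg1, which overlaps Cacna1h, is not among the 18, and was tested and not called (log2 fold change -1.74, adjusted p = 0.0951). Of these neighbours 15 were not called, 2 were higher and 1 was lower, where 23.6% of all tested genes were called. Beside Cacna1i, Grap2 rose by 0.71, and beside Kcnk1, Ntpcr rose by 0.27 (adjusted p = 0.0345) while Slc35f3 fell by 2.29 on the log2 scale (adjusted p = 0.00769). Both neighbours of Trpc4, Ufm1 and Supt20, had log2 fold changes of -0.02.

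Upstream sequences are shown for the 4 genes of at least 2-fold change whose window lies wholly outside the RefSeq gene span: Slc8a1 and Cacna1i, which rose, and Ryr2 and Kcna5, which fell. Each is the 250 bases before the annotated start, 5′ to 3′ on the gene's strand, from RefSeq for GRCm38.p6, at chr17:81738388-81738637 (minus strand), chr15:80286988-80287237 (plus strand), chr13:12106946-12107195 (minus strand) and chr6:126535556-126535805 (minus strand). Capitals mark the letters GAGGAA or their reverse complement, a purine-rich core that PU.1, named in the series title, is known to bind.
Slc8a1: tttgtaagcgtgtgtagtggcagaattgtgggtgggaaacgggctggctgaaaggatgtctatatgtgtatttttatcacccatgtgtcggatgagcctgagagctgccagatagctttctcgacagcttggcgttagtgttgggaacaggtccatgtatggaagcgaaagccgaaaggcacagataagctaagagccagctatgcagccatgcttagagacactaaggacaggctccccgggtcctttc
Cacna1i: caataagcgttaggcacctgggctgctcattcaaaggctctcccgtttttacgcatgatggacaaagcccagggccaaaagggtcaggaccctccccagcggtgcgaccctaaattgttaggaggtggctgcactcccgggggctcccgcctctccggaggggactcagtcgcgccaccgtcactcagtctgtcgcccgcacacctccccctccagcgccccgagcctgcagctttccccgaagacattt
Ryr2: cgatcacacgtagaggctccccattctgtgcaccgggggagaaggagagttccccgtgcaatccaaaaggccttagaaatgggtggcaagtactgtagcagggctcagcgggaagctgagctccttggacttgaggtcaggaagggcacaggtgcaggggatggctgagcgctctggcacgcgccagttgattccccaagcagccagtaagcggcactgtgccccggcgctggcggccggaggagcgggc
Kcna5: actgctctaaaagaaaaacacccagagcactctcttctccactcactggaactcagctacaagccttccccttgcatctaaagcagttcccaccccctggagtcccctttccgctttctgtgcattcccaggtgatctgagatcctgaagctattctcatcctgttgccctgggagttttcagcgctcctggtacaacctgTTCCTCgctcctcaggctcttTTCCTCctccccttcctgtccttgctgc
Kcna5 held the core at positions -49 and -28 from the start, and the other windows shown held none. None of the 4 windows held CACGTG, the palindromic E-box that MYC proteins bind. Over all 32851 annotated windows of this length, 23.3% held GAGGAA and 6.02% held CACGTG on either strand. For the channel genes, 101 of 131 had a window, and of their 136 windows 21.3% held GAGGAA and 8.09% held CACGTG. A match of letters is a description of the sequence and not a binding site.

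Of 41 tested calcium signalling genes outside the channel families, 3 rose and 5 fell (19.5% called, against 23.6% of all tested genes), with a median log2 fold change of -0.02. Without Anp32b-/- replicate 1 the list held 1 rise and 1 fall, and without Anp32b-/- replicate 2 it held 0 rises and 1 fall. Plcg1, a phospholipase C gamma gene, was at 58.0 and 60.6 CPM in Anp32b-/- libraries, against 96.2 and 89.7 CPM in Anp32b+/+ libraries, a fall of 0.65 (SE 0.06, adjusted p = 2.17e-06) on the log2 scale. Plcg2, the other phospholipase C gamma gene, was at 380 and 371 CPM in Anp32b-/- and 333 and 320 CPM in Anp32b+/+ libraries, a rise of 0.20 (adjusted p = 0.0103). The call of Plcg2 was lost without Anp32b-/- replicate 1 (adjusted p = 0.200) or 2 (0.166). Camkk2, a calmodulin-dependent kinase kinase gene, rose by 0.31, a call lost without Anp32b-/- replicate 2 (adjusted p = 0.130). Nfat5, a transcription factor of the response to salt stress, fell by 0.33 on the log2 scale, and was not called without Anp32b-/- replicate 1 (0.0542) or 2 (0.175).

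The genes of the IP3 receptors, the release channels of the endoplasmic reticulum, were expressed and not called. Itpr3, of the highest CPM among them, was at 214.5 and 209.3 CPM in Anp32b-/- and 207 and 189.5 CPM in Anp32b+/+ libraries (log2 fold change 0.09, adjusted p = 0.254), and was called higher without Anp32b+/+ replicate 1 (0.16, adjusted p = 0.0108). Itpr1 was at 40.2 and 41.7 CPM in Anp32b-/- libraries, within the 45.7 and 36.6 CPM of the Anp32b+/+ libraries, and its fold change of -0.0059 on the log2 scale had no stable sign. It was 7.3e-05 with DESeq2, 0.02 without Anp32b-/- replicate 1 and 0.17 without Anp32b+/+ replicate 1. Itpr2 was at 23.2 and 22.7 CPM in Anp32b-/- and 26.0 and 23.9 CPM in Anp32b+/+ libraries (-0.12, adjusted p = 0.319).

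The calls of Micu2, a regulator of the mitochondrial calcium uniporter (-0.20), and of Rcan3, a calcineurin regulator (0.31, adjusted p = 0.0492), were also lost when a library was left out. Micu2 had an adjusted p of 0.119 and 0.288 without Anp32b-/- replicates 1 and 2. Rcan3 was not called in any of the 4 such fits (adjusted p from 0.0548 without Anp32b+/+ replicate 1 to 0.208 without Anp32b-/- replicate 1).

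Of 34 tested channels and pumps of other families, 5 rose and 8 fell (38.2%, against 23.6%). Without Anp32b-/- replicate 1 the counts were 2 and 4, and without Anp32b-/- replicate 2 they were 2 and 3. P2rx3, an ATP-gated cation channel gene, was at 8.88 and 8.73 CPM in Anp32b-/- libraries, against 24.3 and 24.1 CPM in Anp32b+/+ libraries (-1.46, SE 0.09, adjusted p = 4.45e-08). P2rx7, the ATP receptor of macrophages and lymphocytes, was at 1.13 and 1.14 CPM in Anp32b-/- and 3.56 and 3.63 CPM in Anp32b+/+ libraries (-1.66, adjusted p = 1.62e-04). Slc12a7, a potassium-chloride cotransporter gene, was at 45.4 and 47.5 CPM in Anp32b-/- and 103 and 97.6 CPM in Anp32b+/+ libraries (-1.11, adjusted p = 9.68e-09). These 3 falls separated the genotypes. Piezo1, the mechanically gated channel, was at 144 and 137 CPM in Anp32b-/- and 106.5 and 92.5 CPM in Anp32b+/+ libraries, a rise of 0.50 (adjusted p = 6.52e-05). Mcoln2, a lysosomal cation channel gene of B cells, rose by 0.46 (adjusted p = 2.35e-04). Mcoln3, a relative of Mcoln2, was at 3.29 and 3.20 CPM in Anp32b-/- and 1.66 and 2.12 CPM in Anp32b+/+ libraries (0.78, adjusted p = 0.0241). Its call was lost without Anp32b-/- replicate 1 (0.133), Anp32b-/- replicate 2 (0.153) or Anp32b+/+ replicate 1 (0.106). Clic4 rose by 0.20 (adjusted p = 0.0124), a call lost without Anp32b-/- replicate 1 (0.102) or 2 (0.282).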

How the data were processed

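RNA-seq was available for 4 libraries, 2 per genotype, grouped by the genotype in the labels. The deposited files hold estimated read counts (expected counts) per gene symbol. Per the submitters' processing notes, the tools were DESeq2 1.4.5 and HISAT2 2.0.4 and the build GRCm38. Which tool counted, with which annotation and strand setting, is not given in the sources used here, so reads of overlapping genes cannot be told apart by strand.

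Counts were rounded and tested with edgeR 4.0.16 (R 4.3.3): quasi-likelihood test, TMM, filterByExpr (minimum count 10), no covariate, Benjamini-Hochberg adjustment over all tested genes, calls at an adjusted p under 0.05. SE is the absolute log2 fold change over the root of F. With 2 libraries a side the smallest p of an exact permutation test is 0.333, and none was run. Lengths are medians over basic protein-coding GENCODE M21 transcripts, and coordinates are RefSeq GRCm38.p6, counted from 1. The procedure was tested on simulated counts of 12001 tested genes: 44%, 84%, 94% and 100% of genes changed 1.25-, 1.5-, 2- and 4-fold were recovered, and 3.59% of calls were false. In the simulation 50 genes changed at each fold, all of at least 1 CPM on average. Every gene had the same spread, a biological coefficient of variation of 0.05, so the rates need not hold for the measured libraries.

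Genes named are the whole Orai, Stim, pump and exchanger families, called genes of at least 2-fold, the gene of highest CPM and of smallest p in each family, and the 3 of smallest p per direction in each outside list. The remaining called genes, Kcna3, Kcnk6, Kcnk10, Itpr1 to Itpr3, Mcoln3, Trpc2, and genes named without a fold change were added after their values were seen. Of the called channel genes, 1 is counted but not reported here by name. The members and lists were chosen with earlier results of these data known. Alternatives were the replicate block, DESeq2 1.42.0, RLE and upper-quartile factors, no filter, a filter of 1 CPM in 2 libraries, and leaving out each library. Counts leaving out genes above the filter cut-off in both libraries of 1 genotype and in no library of the other were added after seeing the data.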

Additional observations from a re-analysis of the deposited data

How the results depend on the processing

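Of the 14 channel genes called in each of the 10 alternatives, each kept its direction in all of them. The other 7 calls, among them Cacna1a, Cacna2d4, Cacnb1, Kcnk5, Stim2 and Trpm4, were lost in at least 3. Fits without a library assume that the lone library varies like the other pair, and without an Anp32b-/- library the spread comes from the Anp32b+/+ pair, which varied more. With DESeq2, 680 genes were higher and 714 lower, channel genes that were lower numbered 5, calcium genes that were lower 2, and other channels that were higher 3. With no filter, 547 genes were higher and 744 lower, with 0 calcium genes higher and 1 lower, and 2 other channels higher. Over the leave-outs, all genes ran from 372 to 1676 higher and from 579 to 1712 lower, channel genes from 9 to 13 higher and from 5 to 11 lower, calcium genes from 0 to 3 higher and from 1 to 5 lower, and other channels from 2 to 6 higher and from 3 to 8 lower. Without Anp32b-/- replicate 1, 588 genes were higher and 867 lower, and without Anp32b-/- replicate 2, 372 and 579. The causes were not tested.

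Log2 fold changes that changed sign were not called under any setting except that of Kcna3. With upper-quartile normalization, Orai1 was at -0.013 and Trpm7 at -0.011, and with DESeq2 Itpr1 was at 7.3e-05. Over the leave-outs, Orai1 ran from -0.041 to 0.076, Trpm7 from -0.0028 to 0.039, Itpr1 from -0.16 to 0.17, Kcnj15 from -0.66 to 0.033, Kcnq5 from -0.14 to 0.087, Atp2a1 from -1.50 to 0.13 and Kcna3 from -0.52 to 0.46. The median of all genes moved by at most 0.03 with another scaling. The libraries share only a replicate number: deviations of same-numbered libraries correlated at 0.0513 over genes. With the replicate block, 14 channel genes were called higher and 11 lower, all 21 calls among them.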

Other observations

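Some channel genes below the filter had reads in 1 genotype mainly, chosen here after their values were seen and not tested. Kcnk3, a two-pore-domain channel gene, had 6.02 and 9.04 reads in Anp32b-/- libraries, against 1.01 and 1 reads in Anp32b+/+ libraries, a ratio of 7.67 (95% counting interval 1.78 to 69.2). Kcnj11, a subunit gene of ATP-sensitive potassium channels, had 6 and 10 reads in Anp32b-/- and 2 and 2 in Anp32b+/+ libraries, a ratio of 4.09 (1.32 to 16.8). Such intervals cover counting error only.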
